A study of Homo sapiens with 36 samples.

Results

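The genes described here are 40 genes of protein folding, quality control and retrieval in the endoplasmic reticulum (ER), followed across 36 arrays of HK-2 cells, an immortalised line of human renal proximal tubular epithelial cells. The 40 genes were taken by name. For each, the probe set used was the brightest on average among those annotated with that symbol alone, and a set whose name ends in _x_at, which can take signal from related transcripts, was used only where no other existed. This gave 36 of the 40 genes a value, out of 19775 genes represented in the same way, and all 36 passed the filter on low values in both compounds' fits. PDIA5, SYVN1, TXNDC5 and KDELR2 had no probe set with a single symbol and have no value here. The study exposed the cells to compounds labelled Aa and Ota at a low or a high dose and measured RNA on Affymetrix U133 Plus 2.0 arrays, as a search for signatures of kidney toxicity. For Aa the groups were vehicle control, low dose and high dose at 24 h and at 48 h, and for Ota they were vehicle control, low dose and high dose at 24 h and at 72 h, which makes 12 groups of 3 biological replicates each. All groups, the controls included, were grown in a defined medium with EGF, hydrocortisone, insulin, transferrin and selenite and were seeded 24 h before exposure. The labels give no concentrations, so doses could not be matched between the compounds. Nothing in the labels says how the biological replicates were separated in culture, so what their spread covers is not known. The p-values rest on that spread within groups, pooled over all groups of a fit.

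Proteins that enter the secretory pathway fold in the ER with the help of chaperones such as HSPA5 (BiP), lectins such as calreticulin and calnexin, and enzymes that form disulphide bonds or turn proline residues. When unfolded proteins build up there, the sensors IRE1 (encoded by ERN1), PERK (EIF2AK3) and ATF6 start the unfolded protein response: IRE1 splices the XBP1 mRNA into the form that encodes an active factor, ATF6 is cleaved to release a factor, and PERK slows translation and raises ATF4 and its target DDIT3 (CHOP). The ATF6 and XBP1 factors raise chaperone and degradation genes through short promoter elements, among them the ER stress element (ERSE) and its shorter form ERSE-II. Proximal tubular cells take up and secrete large amounts of protein and solute and are a common site of kidney toxicity.

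Promoter windows with these elements before the start are shown for 8 members, but not for CANX, ERO1B and PDIA6, which held ERSE matches too. They were read from the RefSeq promoter table for GRCh38.p14, which held an entry for 36 of the 40 genes, and run 5′ to 3′ on the gene's strand with the matched element in capitals. The windows lie at chr9:125241344-125241593 (HSPA5, minus strand), chr12:103930196-103930359 (HSP90B1, plus strand), chr11:119057254-119057410 (HYOU1, minus strand), chr19:12938364-12938422 (CALR, plus strand), chr22:49918534-49918592 (CRELD2, plus strand), chr22:28800583-28800641 (XBP1, minus strand), chr22:21642094-21642144 (SDF2L1, plus strand) and chr16:56932005-56932055 (HERPUD1, plus strand), all upstream of the annotated transcription start.
HSPA5: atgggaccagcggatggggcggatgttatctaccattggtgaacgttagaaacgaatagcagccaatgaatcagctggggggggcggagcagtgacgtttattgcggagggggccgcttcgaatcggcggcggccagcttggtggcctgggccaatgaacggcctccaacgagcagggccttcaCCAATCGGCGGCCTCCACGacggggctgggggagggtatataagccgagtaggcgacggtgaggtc
HSP90B1: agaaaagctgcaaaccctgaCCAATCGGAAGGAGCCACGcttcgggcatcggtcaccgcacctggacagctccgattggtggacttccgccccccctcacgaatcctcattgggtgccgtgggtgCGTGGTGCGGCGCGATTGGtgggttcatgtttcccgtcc
HYOU1: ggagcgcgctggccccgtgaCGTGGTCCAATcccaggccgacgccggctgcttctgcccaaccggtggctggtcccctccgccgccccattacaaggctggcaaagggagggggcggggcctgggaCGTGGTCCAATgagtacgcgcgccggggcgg
CALR: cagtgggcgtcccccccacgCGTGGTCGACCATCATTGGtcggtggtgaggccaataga
CRELD2: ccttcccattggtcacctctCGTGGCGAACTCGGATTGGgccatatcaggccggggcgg
XBP1: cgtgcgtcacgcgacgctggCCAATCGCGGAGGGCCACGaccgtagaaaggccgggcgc
SDF2L1: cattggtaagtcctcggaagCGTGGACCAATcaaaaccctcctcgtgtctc
HERPUD1: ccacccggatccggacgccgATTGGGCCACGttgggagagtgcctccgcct
The ERSE letters searched were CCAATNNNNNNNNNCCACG and the ERSE-II letters ATTGGNCCACG, on both strands of 250 bases before to 50 bases after each start. ERSE was matched in 0.0769% of all 35116 promoter entries and in 8 of the 36 members with an entry (CALR, CANX, CRELD2, ERO1B, HSP90B1, HSPA5, PDIA6 and XBP1). ERSE-II was matched in 0.0541% of the entries and in 3 members (HERPUD1, HYOU1 and SDF2L1). The HSPA5 match ends 47 bases before the start, and the HYOU1 window holds 2 ERSE-II matches, read on the strand opposite to the gene. The XBP1 element TGACGTGG, matched in 0.729% of the entries, occurred in 5 members (DNAJC10, HYOU1, KDELR3, TXNDC11 and TXNDC5), in HYOU1 overlapping an ERSE-II match. A match describes letters in a window and is not a binding site.

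The arrays of a group had correlations between replicates of 0.953 to 0.994 over the genes tested. The arrays of high-dose Ota were dimmer than the rest: the median log2 signal of the tested genes was 7.51 ± 0.17 (SD, n = 3) at 24 h and 7.83 ± 0.05 at 72 h, against 8.18 ± 0.05 and 8.17 ± 0.03 in their controls. With the values as deposited, the median change of all tested genes under high-dose Ota was -0.26 at 24 h and -0.12 at 72 h, and it became 0.14 and 0.12 after quantile normalization and 0.38 and 0.20 when each array was shifted to the same median. Changes under high-dose Ota are given on the deposited scale, with the counts under another scaling beside them, and its value for a named member whose fall or rise was then no longer called. The log2 difference between the 3′ and 5′ probe sets of ACTB, which rises as RNA is degraded, was 1.08 ± 0.24, 1.29 ± 0.15 and 1.88 ± 0.37 in the Ota vehicle 24 h, vehicle 72 h and high-dose 72 h groups, and its part in the results was not tested. HK-2 cells expressed all 6 tubular epithelial markers examined, while 8 of the 12 proximal tubule markers with a probe set, among them LRP2, CUBN and AQP1, were at or under a log2 value of 4 on all vehicle arrays. In these bulk samples, fewer cells of a kind and less RNA per cell cannot be told apart.

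The largest count of calls over the 36 genes was in cells that received no compound. In the Ota series, the vehicle controls at 72 h had higher signal than the vehicle controls at 24 h for 31 of 36 members and lower signal for none (limma, Benjamini-Hochberg adjusted p from 4.9e-08 to 0.00862), against 14.0% of all 11029 tested genes that rose and 15.8% that fell. All 36 members had a difference above 0, with a median of 1.55 on the log2 scale beside -0.00 over all tested genes. The comparison asks how these genes moved with time in cultures that received vehicle alone. The count was 31 again after leaving out any 1 of the 6 arrays.

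The lumenal chaperones all rose. HSPA5, the ER member of the HSP70 family that also holds the sensors inactive, measured 12.97, 12.42 and 12.74 on the vehicle arrays at 24 h and 15.26, 15.15 and 15.27 at 72 h. The arrays of the later time all lay above those of the earlier one, a log2 difference of 2.52 ± 0.21 (SE, n = 3 per group; limma adjusted p = 6.67e-07), or 5.74-fold. HSP90B1 (GRP94), the ER member of the HSP90 family, went from 11.42, 11.49 and 11.27 to 13.46, 13.35 and 13.70. Its probe sets are all of the _x_at kind, so its difference of 2.11 ± 0.21 is less certain in identity. HYOU1, an HSP70-like nucleotide exchange factor for HSPA5, rose by 3.27 ± 0.25, with 9.15, 8.74 and 8.63 at 24 h and 12.28, 11.70 and 12.37 at 72 h. HSPA13, a further HSP70-type protein of microsomes, rose by 1.79 ± 0.25.

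The J-domain partners of HSPA5 and its associated proteins rose as well, all 5 of 5, with a median of 2.71. SDF2L1, which forms a complex with DNAJB11 and prolongs HSPA5 action, was flat at 6.36, 6.34 and 6.35 at 24 h and reached 10.76, 10.47 and 11.09 at 72 h. That 4.42 ± 0.27 difference (adjusted p = 4.9e-08) was, after that of ERO1B, the largest of the 36. DNAJB9, which represses IRE1 and is an XBP1 target, measured 9.56, 9.46 and 9.57 and then 12.54, 12.34 and 12.70, a rise of 3.00 ± 0.27. DNAJC3 rose by 2.71 ± 0.29, DNAJB11 by 2.18 ± 0.21 and DNAJC10, a disulphide reductase used in degradation, by 1.16 ± 0.13. The secreted or retained ER proteins CRELD2 and MANF, both known as markers of ER stress, rose by 3.44 ± 0.26 and 2.62 ± 0.22. CRELD2 went from 9.37, 9.32 and 9.24 to 12.65, 12.47 and 13.14, with no overlap.

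CALR and CANX, the lectin chaperones of the glycoprotein cycle, rose by 1.88 ± 0.28 and 0.85 ± 0.13, and UGGT1, which marks misfolded glycoproteins for another round, by 1.24 ± 0.14. Of the 8 disulphide and proline enzymes with a value, 6 rose. ERO1B, an oxidase that recharges protein disulphide isomerases, had the largest difference of all members, from 5.10, 4.08 and 4.79 at 24 h to 9.19, 8.82 and 9.60 at 72 h (4.55 ± 0.31, adjusted p = 1.42e-07). Its paralogue ERO1A measured 9.64, 9.55 and 9.26 and then 9.81, 9.65 and 9.94, a difference of 0.32 ± 0.13 that did not pass the test. PDIA4, PDIA3, PDIA6 and P4HB, all protein disulphide isomerases, rose by 2.53 ± 0.36, 1.28 ± 0.19, 1.19 ± 0.12 and 0.51 ± 0.13. The proline isomerase PPIB rose by 1.50 ± 0.29, and the thioredoxin-domain protein TXNDC11 differed by 0.11 ± 0.16, which did not pass.

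All 4 sensor and factor genes rose. ERN1, which encodes the sensor IRE1, measured 7.00, 6.58 and 6.87 at 24 h and 10.76, 10.78 and 11.03 at 72 h, a rise of 4.04 ± 0.25 (adjusted p = 4.9e-08). XBP1 measured 8.95, 8.64 and 9.26 and then 10.93, 11.03 and 11.06, a rise of 2.06 ± 0.24, and the array does not tell its spliced from its unspliced form. EIF2AK3 and ATF6 rose by 1.33 ± 0.14 and 1.22 ± 0.18. Among the 7 measured degradation genes, 6 rose: HERPUD1, which scaffolds the ubiquitin ligase complex at the ER membrane, by 3.02 ± 0.22, SEL1L, the partner of that ligase, by 2.38 ± 0.23, DERL3 by 1.59 ± 0.25, EDEM1 by 1.08 ± 0.18, SELENOS by 1.07 ± 0.23 and DERL2 by 0.99 ± 0.17. HERPUD1 went from 10.73, 10.45 and 10.61 to 13.63, 13.43 and 13.79. DERL3 sat under 4 on all vehicle arrays at 24 h, at 3.97, 3.88 and 3.15, and above 5 on all at 72 h, at least 2.39-fold higher, and it was above 4 on 13 of the 36 arrays. DERL1 did not pass with its brightest probe set (0.02 ± 0.11), while of its 3 other sets the 2 that passed the filter on low values rose, by 0.65 and 0.92. The retrieval receptors KDELR1 and KDELR3, which return escaped ER proteins, differed by 0.11 ± 0.17 and 0.24 ± 0.79 without passing, and SEC61B, a subunit of the translocation channel, rose by 0.61 ± 0.14.

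**Figure D1:**
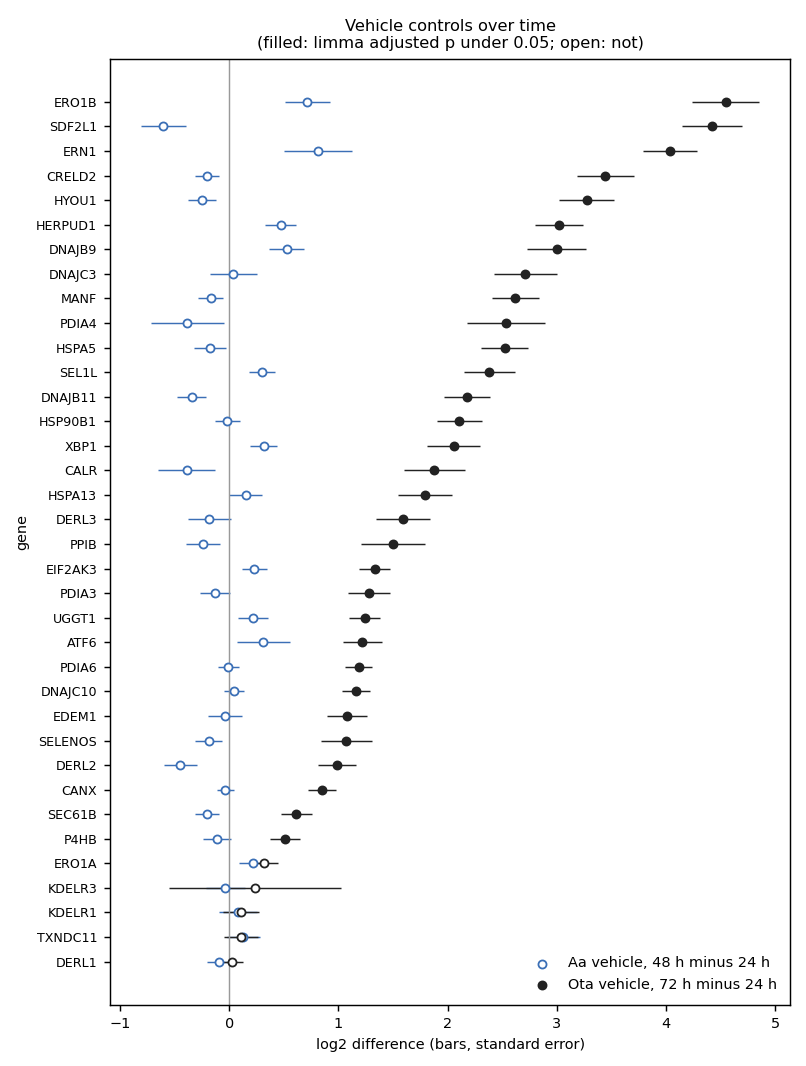
Log2 difference of each of the 36 members between vehicle controls at the later time and at 24 h (horizontal axis; 3 arrays per group, bars are standard errors), in black for Ota at 72 h and in blue for Aa at 48 h; filled points passed limma's adjusted p of 0.05. The black points lie between 0.02 and 4.55 with 31 filled, and the blue points lie between -0.60 and 0.82 with none filled. Both are from fits without the replicate block, and with the block 8 members passed for Aa.

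The members had 55 other probe sets, of which 47 passed the filter on low values in the Ota arrays. Over those 47, the same vehicle comparison called 39 higher and 1 lower, a set for KDELR3. The share over all probe sets was not taken for this count. The second HSPA5 probe set rose by 5.45, and the second XBP1 set gave -0.30 and did not pass. Averaging all sets of a gene, dim ones included, gave 1.57 for ERN1 (both of whose other sets failed the filter) in place of 4.04 and 1.54 for HERPUD1 (whose only other set failed it) in place of 3.02. It also gave 0.88 for XBP1, 0.67 for EIF2AK3, 1.01 for CALR, 0.99 for DERL3 and 0.31 for SEC61B, and more for HSPA5 (3.99), DERL2 (1.50) and DERL1 (0.46, called). With averaged sets KDELR1 and KDELR3 lay below 0, at -0.08 and -0.19.

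The 11 members whose promoter window held an ERSE or ERSE-II match all rose between the vehicle times, by 0.85 to 4.55 with a median of 2.52. Of the 22 tested members with a promoter entry and neither match, 18 rose, with a median of 1.23 and a range of 0.11 to 4.04. These counts are a description, with no test. Beyond the members, 8 tested genes held the ERSE letters, and 4 of them rose and none fell (FICD by 2.74, SERP1 by 1.97, ALG12 by 1.42 and EIF2A by 1.0), while of 11 further genes with the ERSE-II letters none rose and 2 fell. These 4 genes were named after their values were seen. Of the 4 tested members with the XBP1 element 2 rose, with a median of 0.70. Of 105 other tested genes with that element 31 rose and 10 fell, with a median of 0.17. Over all tested genes 14.0% rose and 15.8% fell.

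The list named here the PERK arm also rose in these controls, and PERK activity itself was not measured. Of 12 genes placed downstream of PERK or ATF4, 11 rose and none fell, with a median of 1.89. DDIT3, a factor tied to cell death under ER stress, measured 7.62, 7.72 and 7.45 at 24 h and 12.71, 12.59 and 12.80 at 72 h, a rise of 5.10 ± 0.46 (adjusted p = 1.21e-06). ATF4 rose by 1.55 ± 0.12 and PPP1R15A, which restores translation, by 1.56 ± 0.24. The medians of the other secretory lists were smaller, and the shares over all genes were 14.0% higher and 15.8% lower: of 29 tested genes of other folding and quality control 13 rose and 2 fell (median 0.40), of 33 of translocation and glycosylation 20 rose and 3 fell (median 0.47), of 23 of ER export 10 rose and 1 fell (median 0.39), of 18 of further ER degradation 8 rose and 2 fell (median 0.28), and of 13 of sensor processing and related factors 3 rose and 2 fell (median -0.12). Of 4 tested fibroblast markers 3 fell (DCN, LUM and S100A4), with a summed level of 11.50 to 11.81 at 24 h and 9.89 to 10.22 at 72 h, all 5 leukocyte markers were at or under 4 at both times, and 4 of 5 endothelial markers (PECAM1, CDH5, VWF and KDR) were at or under 4 while ESAM rose by 1.51. Of 6 tubular epithelial markers 2 rose (CDH1 by 1.12 and EPCAM by 0.49) and none fell. The part of these markers in the result was not tested.

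The Aa vehicle controls gave a different picture over their shorter interval. Between 24 h and 48 h none of the 36 members passed limma's test, while 9 had an unadjusted p under 0.05, and the median difference was -0.03. Over all 10972 tested genes 0.565% rose and 0.729% fell. HSPA5 measured 12.76, 12.65 and 13.11 at 24 h and 12.56, 12.53 and 12.89 at 48 h, and these values overlapped. With the replicate number as a block, 8 members passed: ERO1B (0.72), ERN1 (0.82), DNAJB9 (0.53) and HERPUD1 (0.47) were higher at 48 h, and SDF2L1 (-0.60), DERL2 (-0.45), PDIA4 (-0.38) and DNAJB11 (-0.34) were lower. Over all 10972 genes the block called 780 higher and 1012 lower. Averaging all probe sets called 1 member, beside 64 higher and 112 lower of 10373 genes. Leaving out Aa vehicle 48 h replicate 3 called 4, for which a count over all genes is not given here. The intervals differ in length, and the difference between the change in the Ota vehicle and that in the Aa vehicle was not tested.

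**Figure D2:**
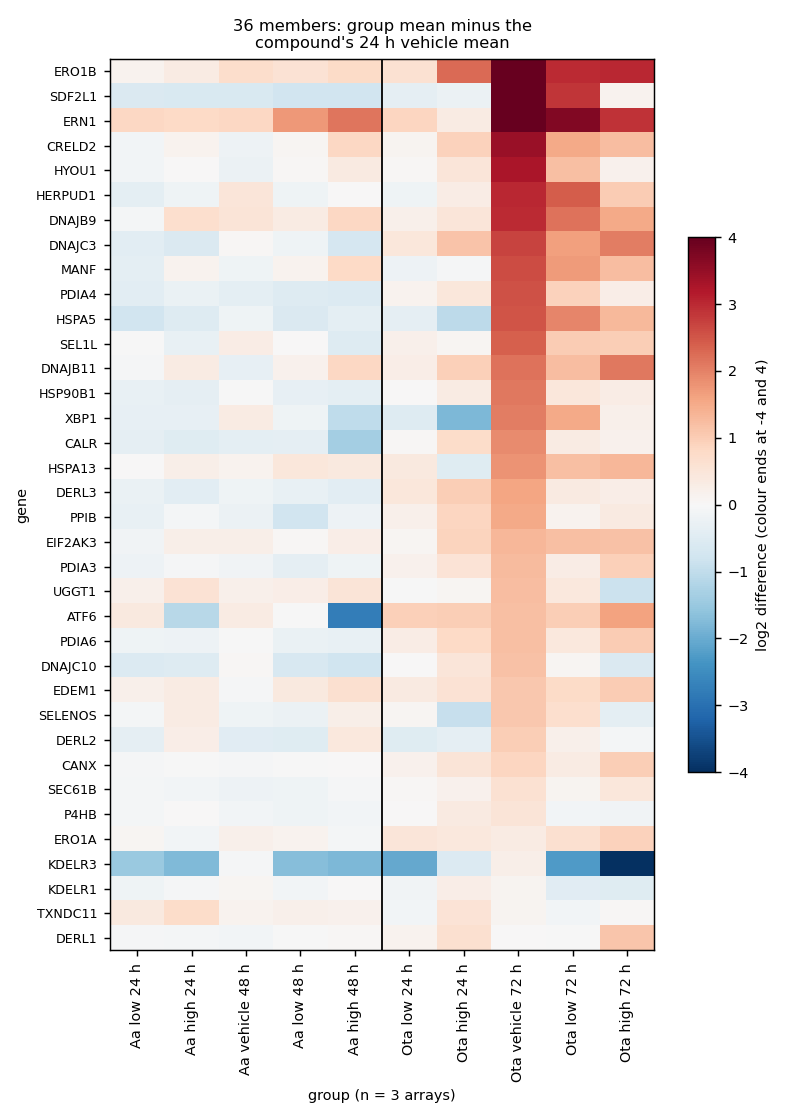
Group means of the 36 members (rows, ordered by the Ota vehicle difference) minus the mean of the same compound's 24 h vehicle controls, on the log2 scale, for the 10 remaining groups (columns, 3 arrays each; colour ends at -4 and 4). The Ota vehicle 72 h column is the most strongly raised, and KDELR3 is below 0 in every dosed column.

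After 72 h of Ota most members were below the matched vehicle controls. At the high dose 23 of 36 members were lower and 2 higher than vehicle at 72 h (adjusted p from 4.18e-09 to 0.00465), against 37.0% lower and 26.3% higher over all tested genes, and the median change was -1.19 beside -0.12. At the low dose 24 were lower and none higher, against 7.28% lower and 9.79% higher, with a median of -0.80 beside 0.02. Of 4 tested fibroblast markers 3 rose at that dose (DCN 1.27, LUM 1.69 and S100A4 1.03), the 3 that fell between the vehicle times, with a summed level of 11.08 to 11.48 against 9.89 to 10.22 in the vehicle, and the proximal tubule marker SLC3A1 rose by 0.84. Of 6 tubular epithelial markers 2 fell at the low dose (CDH1 -1.10 and KRT18 -0.85) and none rose. Both doses share the 72 h controls, which also enter the comparison between vehicle times, so these counts are not independent of each other. Shifting each array to the same median gave 21 lower and 4 higher for the high dose, beside 3083 lower and 4370 higher of all 11029 genes. All 4 proximal tubule markers tested fell at the high dose too (DPP4 -0.86, PAX8 -1.68, SLC3A1 -3.29 and SLC4A4 -3.43), with a summed level of 13.48 to 13.62 in the vehicle and 11.4 to 12.2 at the high dose, and LUM rose by 1.58. Of 6 tubular epithelial markers 3 fell at the high dose (CDH1 -3.27, CDH2 -0.31 and KRT19 -1.29) and none rose. The endothelial marker ESAM fell by 1.97. The part of these markers in the result was not tested.

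SDF2L1 measured 10.76, 10.47 and 11.09 in the 72 h vehicle, 8.44, 9.88 and 9.30 at the low dose and 6.75, 6.36 and 6.40 at the high dose. The high-dose arrays lay near those of the 24 h vehicle (6.34 to 6.36), and the difference from the 72 h vehicle was -4.27 ± 0.27 (adjusted p = 4.18e-09). HYOU1 went from 12.28, 11.70 and 12.37 to 9.55, 10.65 and 9.93 and to 9.16, 8.88 and 9.03, differences of -2.07 ± 0.25 and -3.09 ± 0.25. HSPA5 fell less: it measured 14.16, 15.09 and 14.70 at the low dose, a difference of -0.58 that did not pass, and 14.29, 13.89 and 13.82 at the high dose, a difference of -1.23 ± 0.21 (adjusted p = 0.000112). CRELD2, at 10.29, 11.45 and 10.71 and then 10.68, 10.78 and 10.21, was 1.94 and 2.20 below the 72 h vehicle on the log2 scale. DERL3 was at least 2.39-fold lower at the high dose. The high-dose arrays of HSPA5 lay between those of the 2 vehicle times. Its second probe set gave 0.03 at the high dose and did not pass.

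HSP90B1 measured 11.49, 12.45 and 11.62 at the low dose and 11.87, 11.70 and 11.53 at the high dose, 1.65 and 1.80 below the 72 h vehicle on the log2 scale. HERPUD1 measured 12.64, 13.34 and 13.12 at the low dose (-0.59, not passing) and 11.78, 11.71 and 11.37 at the high dose (-2.0 ± 0.22). DNAJB9 measured 11.17, 12.08 and 11.84 and then 11.31, 11.09 and 10.69, differences of -0.83 ± 0.27 and -1.49 ± 0.27. XBP1 measured 10.21, 10.67 and 10.53 and then 9.56, 9.17 and 8.71, differences of -0.53, which did not pass, and -1.86 ± 0.24. In these genes the high-dose arrays were all below the vehicle arrays. Averaged sets gave smaller high-dose falls for HSPA5 (-0.60), HERPUD1 (-1.10), XBP1 (-0.95) and UGGT1 (-1.18). PDIA4 measured 9.66, 9.65 and 9.50 at the high dose against 11.41 to 12.23 in the vehicle (-2.27 ± 0.36), and UGGT1 8.80, 8.32 and 8.35 against 10.45, 10.62 and 10.67 (-2.09 ± 0.14).

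KDELR3 had the largest fall of the 36. It measured 11.71, 11.48 and 11.85 in the 72 h vehicle, 9.09, 9.35 and 9.07 at the low dose and 6.39, 8.01 and 2.90 at the high dose, so the last group spread widely. The high-dose difference was -5.91 ± 0.79 (adjusted p = 8.6e-06). It was -4.48 without high-dose replicate 3, -7.04 without high-dose replicate 2 and -5.55 with values at or under 4 set to 4. The low-dose difference of -2.51 ± 0.79 (adjusted p = 0.0392) was lost when any 1 of the 6 arrays was left out (adjusted p 0.0744 to 0.111), and averaged sets gave -1.60. The fit takes 1 variance per gene over all Ota groups, the widely spread high-dose group included.

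DERL1, a subunit of the ER membrane channel for misfolded proteins, rose. It measured 10.58, 10.41 and 10.60 in the 72 h vehicle and 11.55, 11.68 and 11.67 at the high dose, a difference of 1.10 ± 0.11 (adjusted p = 3.71e-07), and of its 3 other probe sets the 2 that passed the filter rose by 1.24 and 1.05. ERO1A rose by 0.59 ± 0.13 with its brightest set, from 9.81, 9.65 and 9.94 to 10.29, 10.55 and 10.34, while its other sets fell by 0.86 and 0.80 and the mean of all by 0.36. High and low dose differed directly in 17 members at 72 h, 6 higher and 11 lower at the high dose (21.7% and 36.7% of all genes). DERL1 (1.14 ± 0.11), DNAJB11 (0.88 ± 0.21) and CANX (0.67 ± 0.13) were the highest, and KDELR3 (-3.40 ± 0.79, or -1.97 without high-dose replicate 3 and -4.53 without replicate 2), SDF2L1 (-2.71 ± 0.27) and HERPUD1 (-1.41 ± 0.22; -0.64 with averaged sets) the lowest. Shifting arrays gave 12 higher and 8 lower, beside 4088 and 2836 of all 11029 genes.

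**Figure D3:**
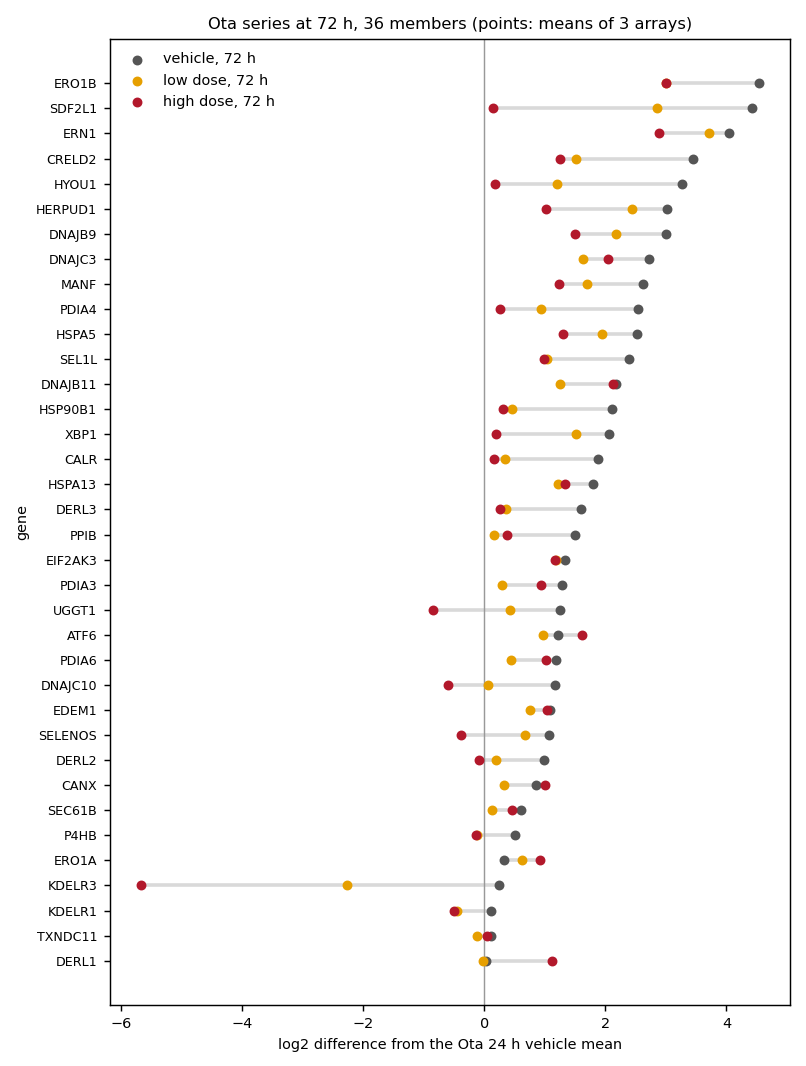
Means of 3 arrays of the Ota vehicle (grey), low-dose (orange) and high-dose (red) groups at 72 h for the 36 members, each minus the 24 h vehicle mean on the log2 scale. For SDF2L1 the vehicle lies at 4.42 and the high dose at 0.15, and KDELR3 reaches -5.68 at the high dose.

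Set against the 24 h vehicle, a comparison added after the data were seen, dosed cells at 72 h had more signal for most members. At the high dose 20 members were higher and 4 lower than the 24 h vehicle (24.2% and 36.5% of all genes), with a median of 0.92 beside -0.14, and these counts share the 24 h controls. At the low dose 20 were higher and none lower (10.9% and 9.84% of all genes), with a median of 0.72. KDELR3 was the lowest there at -2.27 and did not pass (limma adjusted p = 0.0527). The largest at the high dose were ERO1B (3.01 ± 0.31), ERN1 (2.88 ± 0.25) and DNAJB11 (2.12 ± 0.21), and HSPA5 was 1.30 ± 0.21 higher. ERN1 (3.72 ± 0.25), ERO1B (2.99 ± 0.31) and SDF2L1 (2.86 ± 0.27) were highest at the low dose. The 4 lower ones at the high dose were KDELR3 (-5.68 ± 0.79, or -4.24 without high-dose replicate 3 and -6.80 without replicate 2), UGGT1 (-0.85 ± 0.14), DNAJC10 (-0.59 ± 0.13) and KDELR1 (-0.50 ± 0.17). With shifted arrays 22 were higher and 2 lower, since DNAJC10 (-0.26) and KDELR1 (-0.16) did not pass, and UGGT1 gave -0.52. Over all 11029 genes, shifting gave 4192 higher and 2970 lower. Another set of UGGT1 rose by 0.49 and a pair of DNAJC10 sets by 0.65 and 1.38, and averaged sets gave -0.33 for UGGT1, -0.03 for DNAJC10, which did not pass, and 1.10 for ERN1 (1.34 at the low dose). SDF2L1, HYOU1, PDIA4, XBP1, CALR and HSP90B1 differed from the 24 h vehicle by 0.15 to 0.31 at the high dose and did not pass, although XBP1 (0.53) and HSP90B1 (0.64) passed with shifted arrays and SDF2L1 (0.74) after quantile normalization.

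After 24 h of Ota the high dose gave more rises than falls. Of 36 members 18 rose and 3 fell (adjusted p from 1.01e-05 to 0.0332), against 21.6% and 42.4% of all genes, with a median of 0.47 beside -0.26. Quantile normalization gave 22 and 2, beside 4238 higher and 3383 lower of all 11029 genes. Shifting each array gave 29 and 1, beside 5193 and 2943 of all genes. At the low dose 3 rose and none fell, against 4.66% and 10.0% of all genes. The lowest difference among the members at that dose was -2.04, which did not pass. Of 4 tested proximal tubule markers 3 fell at the high dose (PAX8 -2.51, SLC3A1 -1.38 and SLC4A4 -2.10), with a summed level of 12.28 to 12.45 against 13.1 to 13.3 in the vehicle. The fibroblast markers LUM (0.62) and S100A4 (1.05) rose and COL1A1 fell (-2.07), with a summed level of 11.78 to 12.30 against 11.50 to 11.81, and the leukocyte marker ITGAM was at least 1.95-fold higher. Of 6 tubular epithelial markers 2 fell (KRT18 -1.37 and KRT19 -2.31) and none rose. The part of these markers in the result was not tested.

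ERO1B rose most, from 5.10, 4.08 and 4.79 in the vehicle to 6.46, 7.46 and 6.84, a difference of 2.26 ± 0.31 (adjusted p = 1.14e-05), or 1.20 with averaged sets. DNAJC3, a co-chaperone known to inhibit PERK, went from 8.29, 8.08 and 8.71 to 9.50, 9.23 and 9.75 (1.13 ± 0.29). ATF6 went from 8.86, 9.04 and 8.92 to 9.83, 9.87 and 10.05 (0.97 ± 0.18), and its other 3 probe sets rose too. In all 3 genes the arrays did not overlap. DERL3 was at or under 4 in the vehicle and at 4.77, 5.13 and 4.03 at the high dose, at least 1.56-fold higher. Of the 8 disulphide and proline enzymes 7 rose, by 0.34 to 2.26, and CALR and CANX rose by 0.73 ± 0.28 and 0.50 ± 0.13. DERL1 measured 10.38, 10.59 and 10.56 in the vehicle and 11.04, 11.26 and 11.13 at the high dose, a rise of 0.63 ± 0.11.

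The 3 that fell were XBP1, HSPA5 and SELENOS. XBP1 measured 7.48, 6.57 and 7.41 against 8.95, 8.64 and 9.26 (-1.80 ± 0.24, adjusted p = 1.01e-05), and it fell under both other scalings (-1.13 after quantile normalization and -1.16 with shifted arrays) and by 0.58 with averaged sets, although its dimmer probe set rose by 0.64. HSPA5 measured 11.61, 11.56 and 11.76 against 12.97, 12.42 and 12.74, a difference of -1.06 ± 0.21 that became -0.43 and did not pass when arrays were shifted. Its other probe set rose by 3.13 ± 0.31, so the 2 probe sets of HSPA5 moved in opposite directions at 24 h. SELENOS, a membrane protein of the degradation complex, measured 8.31, 8.95 and 8.29 against 9.55, 9.33 and 9.46 (-0.93 ± 0.23). That became -0.54 after quantile normalization and -0.29 after shifting, neither of which passed. HSP90B1 (11.78, 11.93 and 11.46 against 11.42, 11.49 and 11.27), DNAJB9 (10.20, 9.30 and 10.50 against 9.56, 9.46 and 9.57) and HERPUD1 (10.99, 10.36 and 11.29 against 10.73, 10.45 and 10.61) differed by 0.33, 0.47 and 0.29 without passing. With shifted arrays all 3 were called higher, at 0.97, 1.11 and 0.92. Without high-dose replicate 2, DNAJB9 (0.82) and HERPUD1 (0.55) were called higher as deposited.

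At the low dose for 24 h, ATF6 (0.95 ± 0.18), ERN1 (0.86 ± 0.25) and ERO1A (0.49 ± 0.13) rose, but ERN1 and ERO1A were each lost on leaving out any 1 of 3 arrays (adjusted p 0.063 to 0.143) and with averaged sets (0.27 and -0.30), and the count fell to 1 without vehicle replicate 3 or low-dose replicate 2. ERO1A's other sets fell by 0.82 and 0.56. None of the 5 members followed on every array passed here, although HSPA5's other set rose by 2.90: HSPA5 measured 12.62, 12.15 and 12.23, HSP90B1 11.45, 11.41 and 11.37, XBP1 8.37, 8.50 and 8.46, DNAJB9 9.75, 9.68 and 9.80, and HERPUD1 10.53, 10.36 and 10.38. High against low dose at 24 h gave 12 higher and 4 lower members (19.4% and 38.7% of all genes). With shifted arrays it gave 28 and 1, beside 4743 and 2716 of all 11029 genes. ERO1B (1.65 ± 0.31), CRELD2 (0.79 ± 0.26) and EIF2AK3 (0.79 ± 0.14) were the highest, and XBP1 (-1.29 ± 0.24), SELENOS (-0.99 ± 0.23) and HSPA13 (-0.87 ± 0.25) the lowest. CRELD2 did not pass without high-dose replicate 2 (adjusted p = 0.0709). With shifted arrays SELENOS and HSPA13 did not pass, and with averaged sets XBP1 (-0.26) and HSPA13 (-0.48) did not, while ERO1B gave 0.88 and EIF2AK3 0.40.

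The change of the high-dose effect between 24 h and 72 h was tested directly. It was lower at 72 h for 26 members and higher for 1, against 20.8% lower and 33.0% higher over all genes. SDF2L1 (-4.03 ± 0.39), ERO1B (-3.80 ± 0.44) and KDELR3 (-5.35 ± 1.11, or -3.92 without high-dose 72 h replicate 3 and -6.48 without replicate 2) changed most, and DERL1 (0.47 ± 0.15) was the one higher. DERL1 did not pass without vehicle 72 h replicate 2 (adjusted p = 0.0504) or with averaged sets (0.13), and with shifted arrays no member was higher and 30 were lower. Over all 11029 genes, shifting gave 2768 higher and 3249 lower. CALR, CRELD2, DERL3, DNAJC10, ERO1B, P4HB and PPIB were higher than vehicle at 24 h and lower at 72 h. With the brightest sets, HSPA5, SELENOS and XBP1 were lower at both times, and DERL1 and ERO1A higher at both. Other sets went the other way for HSPA5 (3.13) and XBP1 (0.64) at 24 h. They also did so for ERO1A (-0.86 and -0.80) and DNAJC10 (0.97) at 72 h. The SELENOS fall at 24 h was not called after quantile normalization or with shifted arrays, nor the HSPA5 fall with shifted arrays. For P4HB the rise was not called after quantile normalization and the fall not with shifted arrays.

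**Figure D4:**
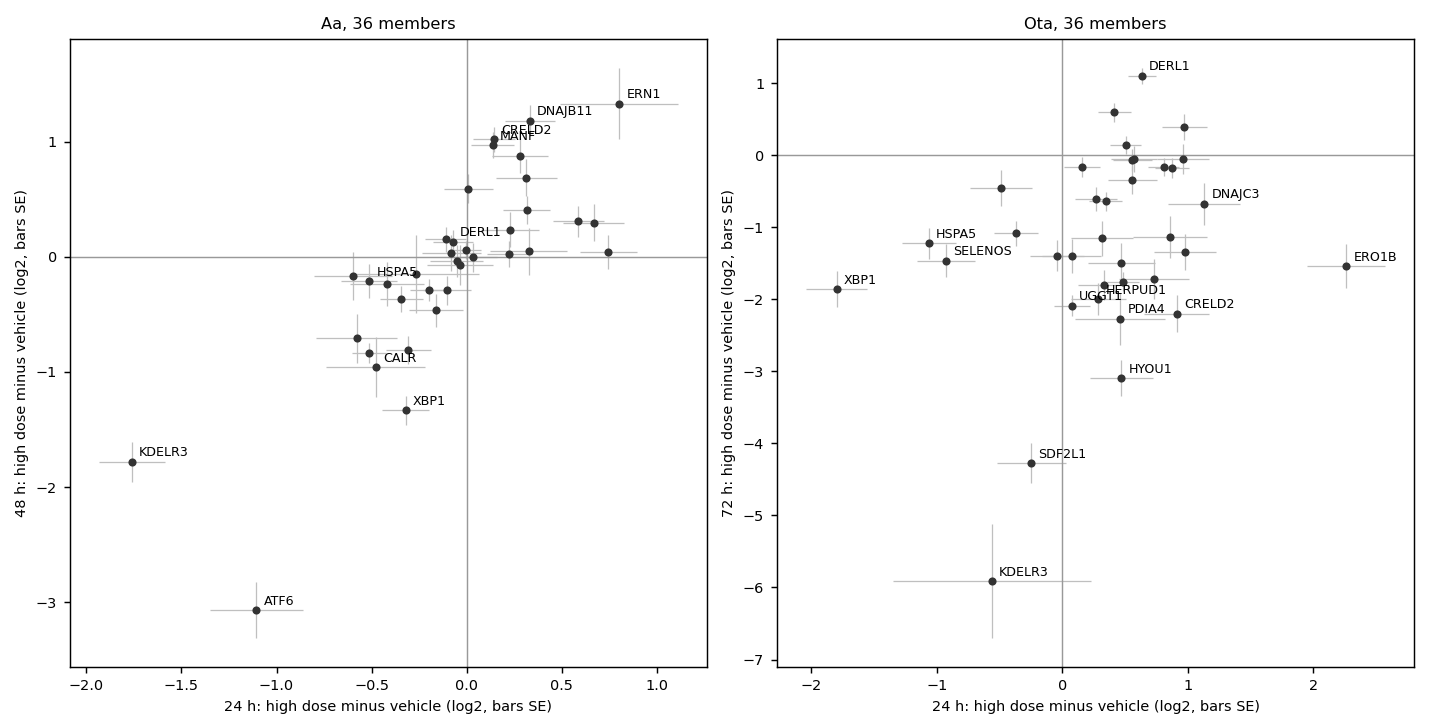
High dose minus vehicle at 24 h (horizontal) and at the later time (vertical) for the 36 members, for Aa (left) and Ota (right), on the log2 scale with standard errors and 3 arrays per group. Under Ota ERO1B lies at 2.26 and -1.54 and XBP1 at -1.80 and -1.86, and under Aa ATF6 lies at -1.11 and -3.07.

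Under Aa members were called in both directions. At the high dose 6 of 36 rose and 9 fell at 24 h (27.4% and 24.0% of all genes), with a median of -0.06 beside 0.03, and 8 rose and 10 fell at 48 h (30.9% and 35.1%), with a median of 0.01 beside -0.04. These shares were near or below those over all genes. The 24 h count fell from 15 to 9 without vehicle replicate 2 or without high-dose replicate 1, and its split was 4 and 11 with shifted arrays. Shifting gave 2605 higher and 3020 lower of all 10972 genes. Of the 4 proximal tubule markers tested, 2 fell at 24 h of high-dose Aa (SLC3A1 by 2.04 and SLC4A4 by 1.11) and 3 at 48 h, with a summed level of 12.60 to 13.05 and 13.03 to 13.54 in the vehicles against 12.32 to 12.61 and 12.27 to 12.68, and their part in the result was not tested. Of 6 tubular epithelial markers 4 fell and none rose at 24 h. At 48 h 4 of them fell and KRT8 rose (0.72), and their part was not tested either.

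ATF6, the sensor that is cleaved into a factor, fell at the high dose. It measured 8.72, 8.88 and 8.63 in the 24 h vehicle and 7.66, 7.66 and 7.59 at the high dose, then 9.18, 9.23 and 8.75 in the 48 h vehicle and 6.46, 5.55 and 5.95 at the high dose. The differences were -1.11 ± 0.24 (adjusted p = 0.0014) and -3.07 ± 0.24 (adjusted p = 6.39e-08). At the low dose ATF6 was 9.06, 9.47 and 8.82 at 24 h and 8.72, 9.19 and 8.29 at 48 h, and neither passed. KDELR3 measured 11.58, 11.51 and 11.60 in the 24 h vehicle against 9.75, 9.78 and 9.88 at the high dose and 9.83, 10.48 and 9.94 at the low dose. At 48 h it measured 11.47, 11.43 and 11.69 against 9.79, 9.55 and 9.92 and 9.68, 10.23 and 9.67. The 4 differences ran from -1.48 to -1.78, with no overlap in any. DNAJC10 measured 11.08, 11.21 and 11.30 in the 24 h vehicle and 10.64, 10.73 and 10.68 at the high dose, with no overlap. It fell in all 4 Aa comparisons, by 0.51 and 0.83 at the high dose and 0.54 and 0.68 at the low dose, or by 0.31 to 0.42 with the mean of its sets.

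XBP1 and several chaperones also fell under high-dose Aa. XBP1 was 8.13, 8.14 and 8.25 against 7.57, 8.13 and 7.85 at 24 h (-0.32 ± 0.12), a call lost when any 1 of 5 arrays was left out (adjusted p 0.0666 to 0.227). At 48 h it was 8.47, 8.49 and 8.51 against 7.12, 7.29 and 7.07 (-1.33 ± 0.12, adjusted p = 2.98e-07; -0.78 with the mean of its sets), with no overlap. HSPA5 was 12.28, 12.22 and 12.48 at 24 h against 12.76, 12.65 and 13.11 (-0.51 ± 0.15), lost without vehicle replicate 3 (-0.38, adjusted p = 0.0531), and 12.46, 12.27 and 12.62 at 48 h (-0.21, called with the replicate block, adjusted p = 0.0237). Its dimmer probe set rose at the high dose, by 1.18 at 24 h and 1.13 at 48 h, and the mean of both sets was called higher (0.33 and 0.46). HSP90B1 was 11.56, 11.43 and 11.51 against 11.11, 11.16 and 11.20 at 24 h (-0.34 ± 0.11) and 11.35, 11.38 and 11.71 against 11.09, 10.96 and 11.29 at 48 h (-0.37 ± 0.11). Each of these was lost on leaving out either of 2 arrays: vehicle or high-dose replicate 1 at 24 h (adjusted p = 0.0664 and 0.0622), and vehicle replicate 3 or high-dose replicate 2 at 48 h (adjusted p = 0.0608 and 0.0531). CALR was 8.67, 7.87 and 8.33 against 9.38, 8.95 and 9.42 at 48 h (-0.96 ± 0.26), while its 2 _x_at sets gave -0.39 and -0.26 and did not pass, and the mean of all 3 gave -0.54. At 24 h HSP90B1 gave -0.27 after quantile normalization, not passing, and -0.59 with averaged sets.

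HERPUD1 was 9.83, 9.95 and 10.05 against 10.03, 10.15 and 10.12 at 24 h (-0.16, not passing). At 48 h it was 9.86, 9.97 and 10.51 against 10.53, 10.75 and 10.45 (-0.46 ± 0.14), lost without vehicle replicate 2 or high-dose replicate 1 (adjusted p = 0.0527 and 0.0604) and with the mean of its sets (-0.13). SEL1L fell by 0.31 and 0.81 (by 0.18, not passing, and 0.52 with the mean of its sets) and DNAJC3 by 0.58 and 0.71 at the 2 times. With the replicate block CALR (-0.48) and PDIA4 (-0.27) were also called lower and DERL2 (0.28) higher at 24 h, and ERO1A (-0.29) lower at 48 h.

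Among the rises, DNAJB9 was 9.46, 9.53 and 9.58 against 8.94, 8.97 and 8.67 at 24 h (0.67 ± 0.16) and 9.59, 9.61 and 9.85 against 9.49, 9.58 and 9.09 at 48 h (0.29, not passing). ERN1 was 7.16, 7.23 and 6.43 against 5.89, 6.21 and 6.31 at 24 h (0.80 ± 0.31), a call lost when any 1 of 5 arrays was left out (adjusted p 0.0532 to 0.138) and at 0.37 with the mean of its sets, and 8.67, 8.51 and 7.67 against 7.34, 7.01 and 6.51 at 48 h (1.33 ± 0.31). TXNDC11 was 8.18, 8.35 and 8.32 against 7.31, 7.49 and 7.82 at 24 h (0.74 ± 0.15), and UGGT1 9.72, 9.64 and 9.84 against 9.36, 9.08 and 9.00 (0.59 ± 0.14), while another UGGT1 set fell by 0.44 and the mean of its sets gave 0.05 and did not pass. In each of these 24 h comparisons the arrays of the 2 groups did not overlap.

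At 48 h of high-dose Aa 8 members rose, among them CRELD2 and MANF. DNAJB11 was 12.12, 11.96 and 12.10 against 10.70, 10.75 and 11.18 (1.18 ± 0.13, adjusted p = 1.76e-06). CRELD2 was 10.19, 10.26 and 10.55 against 9.35, 9.14 and 9.45 (1.02 ± 0.11), and MANF was 10.57, 10.55 and 10.60 against 9.58, 9.38 and 9.86 (0.97 ± 0.11). All high-dose arrays of these 3 genes lay above the vehicle arrays. DERL2, EDEM1, HYOU1 and SELENOS rose by 0.88, 0.69, 0.59 and 0.41.

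At the low dose of Aa none rose and 4 fell at 24 h (11.6% and 13.5% of all genes), or 2 and 11 with the replicate block and 1 and 4 with shifted arrays. Over all 10972 genes the block gave 2009 higher and 2314 lower, and shifting 1415 and 1286. The largest were KDELR3 (-1.48 ± 0.17), HSPA5 (-0.77 ± 0.15) and DNAJC10 (-0.54 ± 0.09), although HSPA5 rose by 1.11 with its other set. At 48 h 4 rose and 6 fell (18.8% and 19.1% of all genes), or 6 and 10 with the block and 2 and 5 with shifted arrays, and the total fell to 6 without low-dose replicate 1. Over all genes the block gave 2945 higher and 2894 lower at 48 h, and shifting 2127 and 1998. ERN1 (0.93 ± 0.31), DNAJB11 (0.52 ± 0.13) and EDEM1 (0.43 ± 0.16) were highest, of which ERN1 and EDEM1 were each lost without any 1 of 4 arrays (adjusted p 0.0568 to 0.134), ERN1 also with averaged sets (0.28) and EDEM1 with shifted arrays (0.45). KDELR3 (-1.67 ± 0.17), DNAJC10 (-0.68 ± 0.09) and HERPUD1 (-0.65 ± 0.14) were lowest.

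HSPA5 at the low dose of Aa measured 11.93 to 12.29 at 24 h and 12.14, 12.27 and 12.35 at 48 h, called lower at both times (-0.77 and -0.41), although its other set rose by 1.42 at 48 h, where the mean of both rose by 0.50 and the fall did not pass with shifted arrays (-0.39). HERPUD1 measured 9.69, 9.75 and 9.66 and then 9.84, 10.05 and 9.89, and XBP1 7.66, 7.97 and 7.88 and then 8.02, 8.01 and 7.96, each called lower at 48 h (XBP1 by 0.49), but averaged sets gave -0.33 for HERPUD1 and -0.23 for XBP1, which did not pass. HSP90B1 (11.06, 11.23 and 11.28, then 11.12, 11.23 and 11.20) and DNAJB9 (8.81, 8.86 and 8.67, then 9.44, 9.34 and 8.83) did not pass at either time. With the replicate block HSP90B1 was called lower at both times (-0.31, adjusted p = 0.0167, and -0.30, adjusted p = 0.0147), as it was with averaged sets (-0.58 and -0.35), and HERPUD1 (-0.40, adjusted p = 0.0264) and XBP1 (-0.33, adjusted p = 0.0209) were called lower at 24 h too.

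Direct comparison of the Aa doses gave 6 higher and 1 lower at 24 h (17.1% and 9.95% of all genes), or 10 and 2 with the block, 3 and 2 with shifted arrays, and 4 in all without high-dose replicate 2 or 3. Over all 10972 genes the block gave 2777 higher and 1776 lower, and shifting 1373 and 1618. DNAJB9 (0.75 ± 0.16), DERL2 (0.66 ± 0.15; 0.35 with averaged sets) and MANF (0.52 ± 0.11) were higher and ATF6 lower (-1.48 ± 0.24). At 48 h it gave 7 higher and 4 lower (20.9% and 25.6% of all genes). DERL2 (0.90 ± 0.15; 0.16, not passing, with averaged sets), CRELD2 (0.73 ± 0.11) and MANF (0.67 ± 0.11) were highest, and ATF6 (-2.74 ± 0.24), CALR (-1.0 ± 0.26) and XBP1 (-0.84 ± 0.12) lowest.

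The change of the high-dose Aa effect from 24 h to 48 h passed for 8 members, 4 higher and 4 lower (7.14% and 13.6% of all genes), or 5 higher and 2 lower with shifted arrays, and for 5 without vehicle 48 h replicate 2 or high-dose 24 h replicate 2. Shifting gave 1055 higher and 1068 lower of all 10972 genes. CRELD2 (0.87 ± 0.16), DNAJB11 (0.85 ± 0.19) and MANF (0.83 ± 0.16) were higher at 48 h, and ATF6 (-1.96 ± 0.34), XBP1 (-1.01 ± 0.18) and TXNDC11 (-0.70 ± 0.21) lower. With averaged sets XBP1 gave -0.38 and did not pass. The TXNDC11 call was lost with shifted arrays, after quantile normalization and on leaving out any 1 of 7 of the 12 arrays (adjusted p 0.0519 to 0.0763).

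**Figure D5:**
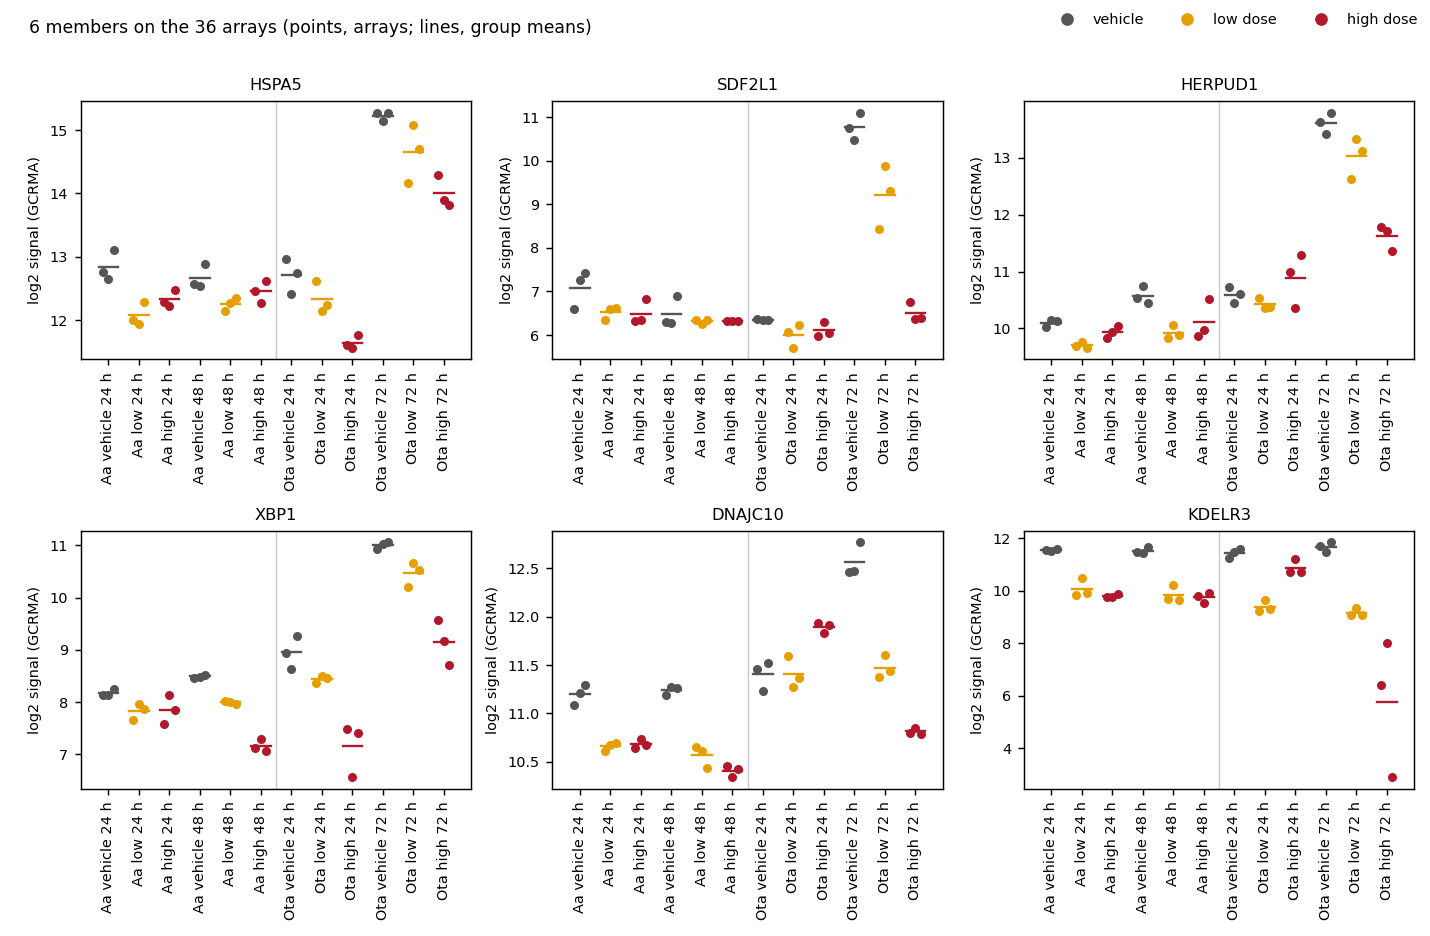
Log2 signal of HSPA5, SDF2L1, HERPUD1, XBP1, DNAJC10 and KDELR3 (vertical axes, each with its own range) on the 36 arrays in the 12 groups (horizontal); points are arrays, lines are group means, grey is vehicle, orange low dose and red high dose. HSPA5 reaches 15.15 to 15.27 in the Ota vehicle at 72 h against 12.42 to 12.97 at 24 h, and KDELR3 falls to 2.90 on 1 high-dose Ota array.

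At 24 h the high-dose effects of the 2 compounds could be set against each other, although at doses the labels do not relate. The Ota effect was higher than the Aa effect for 16 members and lower for 5 (18.7% and 40.7% of all 11405 genes), or 19 and 2 after quantile normalization and 27 and 1 with shifted arrays. Over all genes these scalings gave 3616 higher and 3348 lower, and 4974 higher and 2780 lower. ATF6 (2.08 ± 0.31), ERO1B (1.94 ± 0.38) and DNAJC3 (1.71 ± 0.37) were highest. XBP1 (-1.48 ± 0.28), SELENOS (-1.24 ± 0.27) and HSPA13 (-0.72 ± 0.30) were lowest, of which HSPA13 was lost without any 1 of 6 of the arrays (adjusted p 0.0546 to 0.19) and reached 0.025 with shifted arrays. SELENOS did not pass with shifted arrays (-0.50), and XBP1 gave -0.69 after quantile normalization, -0.73 with shifted arrays and -0.19, not passing, with averaged sets. ERO1B gave 1.06 with averaged sets. Over the 8 comparisons of a dose with its vehicle, KDELR3 and DNAJC10 were called lower in 6, DNAJC10 was higher in 1 (24 h of high-dose Ota), and HSPA13 was called in none.

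At the high dose of Aa more genes of the PERK arm rose than fell. Of 11 tested genes 8 rose and 1 fell at 24 h (median 0.63; 27.4% and 24.0% of all genes), and 6 rose and 3 fell at 48 h (median 0.49; 30.9% and 35.1%). The low dose gave 5 rises and no fall at 24 h (median 0.36; 11.6% and 13.5% of all genes) and 4 rises and 2 falls at 48 h (median 0.16; 18.8% and 19.1%). ATF3, a stress-induced factor, rose by 5.40 ± 0.40 and 6.90 ± 0.40, and PPP1R15A by 2.34 ± 0.27 and 3.48 ± 0.27, while the mean of all ATF3 sets rose by 3.13 and 4.30. DDIT3 measured 9.44, 9.25 and 9.15 against 7.78, 7.96 and 7.95 at 24 h (1.39 ± 0.18) and 9.92, 10.07 and 10.16 against 9.34, 9.03 and 8.43 at 48 h (1.12 ± 0.18), with no overlap at either time. ATF4 rose by 0.76 ± 0.14 at 24 h and differed by 0.29 at 48 h without passing, although it was called with the block, after quantile normalization (0.35) and without high-dose replicate 1 (0.41).

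Under high-dose Ota the PERK arm had 2 rises and 5 falls among 12 genes at 24 h (median -0.39; 21.6% and 42.4% of all genes, close to the shares in this list) and no rise and 9 falls at 72 h (median -1.74; 26.3% and 37.0%). DDIT3 measured 6.31, 5.12 and 7.70 against 7.62, 7.72 and 7.45 at 24 h, overlapping, and its difference of -1.21 ± 0.46 was lost without any 1 of 4 arrays (adjusted p 0.0632 to 0.181). It became -0.58 without high-dose replicate 2 and -1.88 without high-dose replicate 3, and it did not pass with shifted arrays (-0.58) or after quantile normalization (-0.37). At 72 h DDIT3 measured 8.87, 8.35 and 8.38 against 12.71, 12.59 and 12.80 (-4.17 ± 0.46, adjusted p = 1.11e-06), and CHAC1, a glutathione-degrading ATF4 target, fell by 3.66, or by 3.28 with values at or under 4 set to 4. ATF4 fell by 0.99 ± 0.12 (by 0.36 with shifted arrays) and 2.19 ± 0.12. PPP1R15A differed by 0.04 and -0.42 without passing, the first called higher with shifted arrays (0.68) and after quantile normalization (1.0), the second called without high-dose 72 h replicate 3 (-0.69), while ATF3 rose by 4.01 ± 0.40 at 24 h (1.85 with averaged sets) and PPP1R15B fell by 2.78 ± 0.32.

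The wider secretory lists split in both directions at the high doses. At 24 h of Aa (27.4% higher and 24.0% lower over all genes) other folding and quality control genes gave 5 rises and 7 falls of 28 (FKBP11, a proline isomerase, 2.28; DNAJC1 -1.54), further ER degradation 4 and 2 of 18 (AUP1 1.26; NPLOC4 0.81), translocation and glycosylation 5 and 7 of 33 (SEC61A2 1.88; ALG2 0.75), ER export 4 and 7 of 23 (SEC22B -1.16; ERGIC1 -0.78), and sensor processing and related factors 1 and 4 of 13 (MAP3K5 -1.82; CREB3L2 -1.13). At 48 h of Aa (30.9% and 35.1% of all genes) the same lists gave 7 and 8 (FKBP11 3.00; SIL1, an HSPA5 exchange factor, -2.51), 7 and 4 (AUP1 2.46; MARCHF6 -1.31), 9 and 8 (SEC61A2 2.07; SSR3 -1.25), 5 and 11 (SEC22B -1.71; SEC24D -1.70), and 3 and 6 (MAP3K5 -2.18; CREB3L2 -1.70). At 24 h of Ota (21.6% and 42.4%) they gave 11 and 4 of 29 (FKBP14 -2.59, or -1.90 without high-dose replicate 2; MOGS -2.06), 5 and 4 (EDEM3 1.67; UBXN4 -1.45), 9 and 10 (SRPRA -1.92; SEC11C 1.81), 7 and 9 (SEC24D -2.76; BET1 -2.76), and 4 and 4 (CREBRF 2.71; CREB3 -1.65). At 72 h of Ota (26.3% and 37.0%) they gave 6 and 15 of 29 (FKBP11 2.73; FKBP2 -2.43), 8 and 7 (EDEM2 -2.19; UBE2J1 -1.83), 4 and 15 (OSTC -2.86; SRPRA -2.19), 5 and 7 (SEC24D -2.30; SEC31A -2.30), and 5 and 4 (CREB3L2 -2.59; CREB3 -2.52). The leukocyte marker FCER1G was at or under 4 on all vehicle arrays, and compared with them it was at least 5.55-fold higher at 24 h and 6.83-fold higher at 72 h of high-dose Ota and at least 1.66-fold higher at 48 h of high-dose Aa, while at 24 h of high-dose Aa it was also at or under 4 on all arrays. The summed leukocyte level was 4.62 to 4.81 in the vehicle groups, 6.71 to 7.35 in the high-dose Ota groups and 5.27 to 6.07 at 48 h of high-dose Aa, with PTPRC, CD3E and CD14 at or under 4 throughout, and its part in these results was not tested.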

How the data were processed

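Total RNA of 36 HK-2 cultures was hybridised to 1-colour arrays. The log2 values used here were deposited by the authors in the series' value table, and they come from GCRMA per the submitters' processing notes. Its version, and whether it was run once over all 36 arrays, is not given in the sources used here. Of 54675 probe sets, 62 control sets were left out, 41091 carried 1 gene symbol in the platform annotation, 1801 carried several and 11721 none, and sets with several or none were not used.

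Each compound's 18 arrays were fitted by group means in limma 3.58.1 (R 4.3.3, lmFit and eBayes), and all 36 arrays where the compounds were compared. Genes with a log2 value above 4 on at least 3 arrays of the fit were tested (10972 for Aa, 11029 for Ota, 11405 for both). A gene was called at a Benjamini-Hochberg adjusted p under 0.05 over all genes tested. Values were read and plotted with Python 3.11.15, pandas 2.3.3 and matplotlib 3.10.9. The fit was tested on simulated data. The number of arrays, 3 in each group, limits the precision.

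Every array is given for HSPA5, HSP90B1, XBP1, DNAJB9 and HERPUD1, and for the 4 largest called rises and falls without overlap in each high-dose comparison. In other comparisons the 3 largest calls each way are named, and of further lists the 2 most changed called genes, with DDIT3, ATF4 and PPP1R15A always. Other members are named by role. The members and lists were chosen with earlier results of these data known. Comparisons of dosed 72 h groups with the 24 h vehicle, and the values of other probe sets, were added after the data were seen.

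Same-numbered arrays deviated together in every pair of Aa groups (lowest correlation of deviations 0.189), so the numbers were taken to pair the Aa samples, a pairing read from the data and not stated in the labels. The main Aa fit used group means without this pairing, which entered only as the replicate block among the alternatives. Aa counts, p-values and standard errors are from that main fit unless the block is named. In every Aa comparison the block called more members than the main fit. In Ota the lowest was -0.074, and the numbers were not taken to pair. Some Ota pairs did deviate together, such as 24 h vehicle and low dose (0.312 to 0.411). Alternatives were the replicate block, no filter, a filter at 6, quantile normalization, arrays shifted to 1 median, values floored at 4, the mean of a gene's probe sets, all 36 arrays in 1 fit, and leaving out each array.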

Additional observations from a re-analysis of the deposited data

Results flagged for a closer look

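The change of the high-dose effect between times and the difference between compounds were each tested with an interaction contrast in limma, and the members that passed are listed here because their effects differed between groups.

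For Aa, the high-dose effect differed between 48 h and 24 h in 8 members, 4 higher and 4 lower, beside 7.14% and 13.6% of all genes. It was higher at 48 h by 0.87 for CRELD2, 0.85 for DNAJB11 and 0.83 for MANF. It was lower at 48 h for ATF6 (-1.96), XBP1 (-1.01) and TXNDC11 (-0.70).

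For Ota, the high-dose effect differed between 72 h and 24 h in 27 members, 1 higher and 26 lower, beside 33.0% and 20.8% of all genes. It was higher at 72 h for DERL1 (0.47) and lower for KDELR3 (-5.35), SDF2L1 (-4.03) and ERO1B (-3.80). The vehicle controls of these comparisons themselves differ between the times, since 31 members rose in them.

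Between the compounds at 24 h, the high-dose effect differed in 21 members, 16 higher and 5 lower under Ota, beside 18.7% and 40.7% of all genes. It was higher under Ota for ATF6 (2.08), ERO1B (1.94) and DNAJC3 (1.71) and lower for XBP1 (-1.48), SELENOS (-1.24) and HSPA13 (-0.72). The doses are not given in the labels and are not matched. With shifted arrays DERL1 between the Ota times, TXNDC11 between the Aa times, and SELENOS and HSPA13 between the compounds did not pass, and with averaged probe sets DERL1 between the Ota times, HSPA13 between the compounds, and XBP1 between the Aa times and between the compounds did not.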

How the results depend on the processing

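The rise of 31 members in the Ota vehicle kept its direction under every alternative tried, with counts of 30 to 32. With the replicate block the Aa counts were 13 for the low dose at 24 h, 16 for the low dose at 48 h, 12 for high against low dose at 24 h and 8 for the vehicle times. For high dose at 24 h and 48 h, high against low dose at 48 h and the change of effect they were 18, 20, 14 and 11. The block raised the calls over all genes as well, for the Aa vehicle times from 62 higher and 80 lower to 780 and 1012. In Ota, where the numbers were not taken to pair, the block gave 22, 25 and 31 for the high dose at 24 h, at 72 h and the vehicle times. One fit of all 36 arrays gave 8 for high-dose Aa at 24 h, 5 for low-dose Aa at 48 h and 5 for low-dose Ota at 24 h, averaging probe sets gave 1 for the Aa vehicle times and 5 for low-dose Ota at 24 h, and shifted arrays gave 29 for high against low dose of Ota at 24 h. Over all 11029 genes that shift called 4743 higher and 2716 lower.

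Leaving out 1 array gave 9 to 11 for high-dose Aa at 24 h, 6 to 10 for low-dose Aa at 48 h, 4 to 5 for high against low dose of Aa at 24 h, 0 to 4 for the Aa vehicle times, 5 to 8 for the change of the Aa effect and 1 to 4 for low-dose Ota at 24 h. Averaging probe sets turned HSPA5 to 0.33, 0.17 and 0.46 (Aa high dose at 24 h, low dose at 24 h, high dose at 48 h) and 1.04 (high-dose Ota at 24 h), and ERO1A to -0.30 and -0.36 (Ota low dose at 24 h, high dose at 72 h). HSPA13 between compounds became 0.025 with shifted arrays. PPP1R15A at 24 h of high-dose Ota, not called, became -0.049 with averaged probe sets and ranged from -0.13 to 0.14 without 1 array. The causes were not tested. Over single genes, 1265 of 1321 other values and 1030 of 1092 values without 1 array kept their direction and call.

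Signals near the array background limit DERL3, and values at or under 4 carry no order. Spliced XBP1, protein levels and translation were not measured. The 3 cultures per group leave small differences unresolved.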

Other observations

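Some probe sets other than the brightest of a gene gave large values under high-dose Ota at 24 h. A set for PDIA3, a disulphide isomerase of glycoproteins, rose by 3.00 and another by 2.24, against 0.56 for the brightest set. A set for CANX rose by 2.33 against 0.50. The second HSPA5 set rose by 3.13 against -1.06. Over all other sets of the members, 28 rose and 1 fell in that comparison, and 8 rose and 26 fell at 72 h of high-dose Ota. Shares over all probe sets were not taken for these counts. At 72 h a set for DNAJC10 rose by 0.97 against -1.75 for the brightest set. Which transcript forms these sets read was not examined here.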
